A study of Homo sapiens with 24 samples.

Results

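Interferon-stimulated genes (ISGs) were followed in Nalm6, a human acute lymphoblastic leukemia line of B-cell precursor origin, as a list of 49 genes fixed by name. The cells had been transduced with lentivirus carrying a nonspecific shRNA (shNS) or one directed at G9a, GLP or HP1γ, whose genes are EHMT2, EHMT1 and CBX3, and were used as selected populations and not as single clones. Each of these 4 populations was treated for 8 h with 100 nM dexamethasone (dex), a synthetic glucocorticoid, or with vehicle ethanol. RNA was sequenced from 3 replicates of each of the 8 conditions, made on different days. Every population, shNS included, therefore carried a lentiviral vector and had been selected with puromycin, and no group received interferon.

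Type I interferons bind the receptor subunits IFNAR1 and IFNAR2, whose kinases JAK1 and TYK2 phosphorylate transcription factors. With IRF9 these form a complex that binds the interferon-stimulated response element (ISRE) in the promoters of ISGs. A different sequence, the gamma-activated site (GAS), is bound after interferon gamma. The proteins made sense viral RNA, degrade it, block viral entry or assembly, or conjugate ISG15 to other proteins, and many ISGs keep a low basal level in lymphoid cells without added interferon. G9a and GLP methylate lysine 9 of histone H3 and also act as coactivators of the glucocorticoid receptor, and HP1γ binds methylated lysines. The comparisons below ask whether dex, depletion of each factor, or both together altered this basal program.

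Of the 49 genes, 46 were matched to RefSeq accessions of the count table, and the accession with the highest mean count stood for each gene. After the filter of over 1 CPM (a count divided by its library's total and rescaled) in 2 or more libraries, 28 were tested, among 10167 transcripts of 9383 genes. A further 13 were under the filter: STAT2, IRF1, IRF7, IFIT1, OAS1, OASL, SAMD9, TRIM22, HERC6, SP110, IFI35, IFI44L and EPSTI1. Another 5 were listed at 0 in all 24 libraries, namely IFIT3, IFITM3, SAMD9L, IFI6 and IFI27, and PSMB8, PSMB9 and TAP1 were not analysed here.

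The number of accessions a gene had in the table went with whether it was measured. Of the 21 members with 1 accession, 20 were tested (95.2%), and of the 25 with 2 or more, 8 were tested (32.0%) and 5 were listed at 0. Over all genes, 39.2% of the 15699 with 1 accession and 27.6% of the 11687 with 2 or more were tested. Genes of lymphoid cells with several accessions behaved likewise: JAK1 with 8 accessions, STAT3 with 3 and CD79B with 4 were listed at 0, and GAPDH with 4 reached a mean of 45.7 counts at its highest accession, whereas ACTB with 1 had a mean of 114000 counts. A low or zero entry of a member with several accessions was therefore not read as lack of expression.

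**Figure D1:**
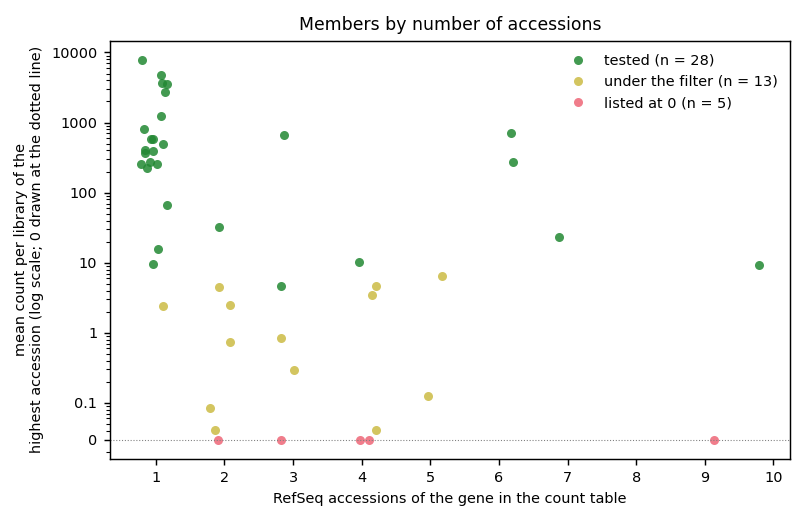
Each point is 1 of the 46 matched ISGs, with the number of its RefSeq accessions on the x axis and the mean count per library of its highest accession on the y axis (log scale, 0 on the dotted line). Green points were tested (28), yellow points were under the filter (13) and pink points were listed at 0 (5); nearly all genes with 1 accession are green, and all 5 pink points have 2 or more accessions.

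Library totals ran from 9289533 to 14387770 counts with a median of 11132064.5. The highest total was that of replicate 2 of dex-treated shG9a cells, a library that stood apart for several genes: CD79A had 1.37 CPM there against 7.34 and 7.51 in replicates 1 and 3, and IGLL1 25.3 against 59.5 and 47.2 CPM. Without it 24 of the 25 called values described below were still called. The labelled cell type was checked on markers of B-cell precursors. RAG1 had a mean of 1910 normalized CPM, and IGLL1, MME and CD79A were also above the filter, while CD79B, PAX5, EBF1, VPREB1 and DNTT, each with 2 or more accessions, had means of 3 counts or fewer. All 5 T-cell markers and all 3 erythroid markers had means of 3 counts or fewer. The dex-induced genes TSC22D3 and FKBP5 rose in dex-treated shNS cells by 3.47 and 1.75 on the log2 scale (edgeR adjusted p = 2.72e-13 and 1.41e-08). In the shGLP cells the 1 tested accession of EHMT1 had 2.62 CPM against 4.08 in shNS in ethanol (log2 fold change -0.65, adjusted p = 0.0923). In the shHP1γ cells CBX3 had 2.86 against 4.01 CPM (log2 fold change -0.50, adjusted p = 0.277). Both were lower as labelled without passing the test, and EHMT2 was not analysed here. These values are of 1 accession each, with mean counts of 37.21 for EHMT1 and 42.96 for CBX3. EHMT1 has 6 accessions, and CBX3 has 2, both tested. Depletion was therefore not judged from these values. The paper reports efficient depletion of each targeted factor, as protein by immunoblot and as mRNA by RT-qPCR.

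The promoters of 4 called members are shown, chosen because each holds the ISRE letters. The sequences are the 250 bases upstream of the annotated start (RefSeq, GRCh38.p14), written 5′ to 3′ along the gene, and capitals mark matches to the ISRE letters on either strand, searched as a pair of GAAA with any 2 bases between them.
ISG20, chr15:88638766-88639015, plus strand: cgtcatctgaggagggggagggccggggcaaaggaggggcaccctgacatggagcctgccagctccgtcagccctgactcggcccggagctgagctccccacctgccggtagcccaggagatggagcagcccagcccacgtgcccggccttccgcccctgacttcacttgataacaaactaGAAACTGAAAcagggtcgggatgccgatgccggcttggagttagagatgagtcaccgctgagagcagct
GBP1, chr1:89065209-89065458, minus strand: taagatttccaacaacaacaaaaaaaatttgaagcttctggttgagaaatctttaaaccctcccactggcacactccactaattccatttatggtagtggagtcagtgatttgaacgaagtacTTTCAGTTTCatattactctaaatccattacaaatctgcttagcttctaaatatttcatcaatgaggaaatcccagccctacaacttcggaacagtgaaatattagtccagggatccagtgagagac
OAS3, chr12:112938224-112938473, plus strand: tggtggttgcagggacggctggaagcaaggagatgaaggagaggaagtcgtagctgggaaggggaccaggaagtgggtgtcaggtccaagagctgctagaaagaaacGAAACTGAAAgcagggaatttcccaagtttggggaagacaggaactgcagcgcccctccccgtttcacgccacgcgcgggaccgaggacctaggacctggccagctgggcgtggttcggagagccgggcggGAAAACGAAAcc
IFIH1, chr2:162318685-162318934, minus strand: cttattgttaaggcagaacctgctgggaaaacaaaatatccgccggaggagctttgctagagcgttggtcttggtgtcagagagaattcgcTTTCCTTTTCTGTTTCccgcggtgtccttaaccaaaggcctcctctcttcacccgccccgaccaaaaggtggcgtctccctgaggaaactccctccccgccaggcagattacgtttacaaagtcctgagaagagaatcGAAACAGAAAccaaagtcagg
ISG20 and GBP1 each have 1 match, which ends 60 and 118 bases before the start, respectively. OAS3 has 2, and IFIH1 has 3, of which 2 overlap each other. None of these 4 windows holds the GAS letters TTCNNNGAA or the core letters ACANNNTGT of the glucocorticoid response element. SP100, the other called member with an entry, has 2 windows, neither with the ISRE letters and 1 with the glucocorticoid core letters. The called members MX2, USP18 and OAS2 had no entry.

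An entry was found for 39 of the 49 members, some with more than 1 start, which gave 51 windows. The ISRE letters were in 27 of the 51 (52.9%), against 3.02% of all 35116 windows, and 24 of the 39 members had them in at least 1 window (61.5%), against 3.71% of all 27305 genes of the table. The GAS letters were in 14 windows (27.5%), against 6.57%. The glucocorticoid core letters were in 3 windows (5.88%; MX1, HERC5 and SP100), against 4.61%. These are matches of letters in a 250-base window and not measured binding.

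Over the 10 comparisons of 2 groups, 8 of the 28 tested members were called with a threshold of 0.05 on the adjusted p (edgeR quasi-likelihood test, Benjamini-Hochberg over all tested transcripts): ISG20, USP18, SP100, OAS2, GBP1, MX2, OAS3 and IFIH1. Of all tested transcripts, 22.9% were called in at least 1 of these comparisons. The 8 members gave 25 called values, 23 higher and 2 lower. The higher values include ISG20 in all 4 populations and repeated values of a gene against the same shNS libraries. The split is therefore not read as a direction of the list. The shares of all transcripts called in each comparison are given below. In all 25 the 3 replicate pairs moved one way and the 2 groups did not overlap. A call on these same libraries makes both likely, so neither is further evidence for the calls. ISG20, USP18 and SP100 were called with dex, GBP1, MX2, OAS3 and IFIH1 with depletion, and OAS2 with both. Of these, ISG20 was tested only because its dex groups passed the filter. The 6 comparisons of depleted with shNS cells share the shNS libraries of a treatment, so their values are given side by side. The fit included the replicate number, and without it 12 of the 25 values were called: ISG20 in all 4 populations, GBP1 in shG9a in both treatments and in dex in shGLP and shHP1γ, and MX2 and OAS3 in shGLP in both treatments. Without replicate 3, 9 of the 25 were called, and without replicate 1 or 2, 20 and 17.

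**Figure D2:**
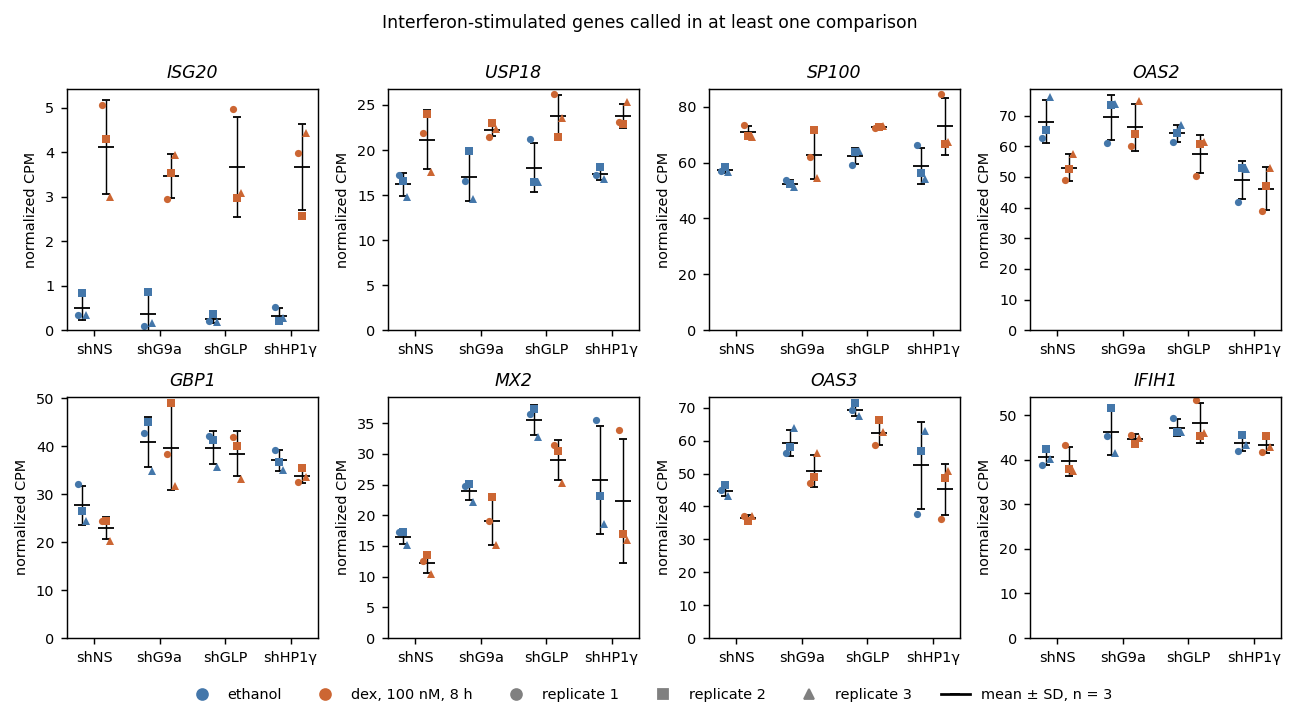
Normalized CPM (y axis) of the 8 called ISGs in every library, by shRNA (x axis), with ethanol in blue and dex in orange, the symbol marking the replicate, and bars giving mean ± SD of 3 libraries. ISG20 is the member in which dex libraries of every population lie far above the ethanol libraries, and for GBP1 all libraries of the depleted cells lie above the shNS libraries of the same treatment.

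ISG20, an exonuclease that degrades single-stranded RNA, was higher in dex in all 4 populations. It passed the filter only through its dex groups, so that any test of it had to start from a difference, and its values are given first of all as a description. In shNS cells it had 0.347, 0.827 and 0.34 CPM in the ethanol libraries and 5.06, 4.29 and 2.99 CPM in the dex libraries. In shGLP cells the ethanol libraries had 0.205, 0.369 and 0.189 CPM and the dex libraries 4.97, 2.98 and 3.07 CPM. No ethanol library of any population reached 1 CPM and no dex library fell below 2.57 CPM. The rise was 8.02-fold in shNS cells (log2 fold change 3.00 ± 0.41 SE, edgeR adjusted p = 1.74e-05). It was 8.85-fold in shG9a (3.15 ± 0.44, adjusted p = 5.18e-05), 13.6-fold in shGLP (3.76 ± 0.50, adjusted p = 2.13e-05) and 10.9-fold in shHP1γ cells (3.45 ± 0.47, adjusted p = 3.8e-05). None of the 3 interactions of dex with a depletion was called, so these folds were not shown to differ from one another. With no filter on low counts the log2 fold changes were 2.98, 3.13, 3.74 and 3.42 in the same order, and all were called. ISG20 had 1 to 10 counts in an ethanol library, and the value is that of 1 of its 7 accessions (NM_001303234; gene at chr15:89178901-89199714, GRCh37).

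USP18, the protease that removes ISG15 from its targets and also dampens signalling at the type I receptor, had 17.2, 16.6 and 14.8 CPM in shNS cells in ethanol and 21.9, 24 and 17.6 CPM in dex. In shHP1γ cells it had 17.2, 18.1 and 16.8 CPM in ethanol and 23.1, 22.9 and 25.3 CPM in dex. The lowest dex library lay above the highest ethanol library in each, narrowly so in shNS. The rise was 1.30-fold in shNS (log2 fold change 0.38 ± 0.12, edgeR adjusted p = 0.0439) and 1.37-fold in shHP1γ cells (0.45 ± 0.12, adjusted p = 0.0332). In shG9a and shGLP cells the log2 fold changes were 0.39 and 0.40, with adjusted p of 0.0506 and 0.0707, so USP18 had similar values in the 4 populations and fell on both sides of the threshold. The call in shNS was lost without any 1 of the 3 replicates (log2 fold changes 0.30 to 0.44) or any 1 shNS library other than replicate 3 in dex (0.29 to 0.40), and that in shHP1γ without any 1 replicate (0.39 to 0.50). USP18 lies at chr22:18632885-18660164 (GRCh37).

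SP100, a component of nuclear bodies that restrict viral DNA, had 56.9, 58.5 and 56.5 CPM in shNS cells in ethanol and 73.6, 69.6 and 69.3 CPM in dex, with no overlap. This was a 1.24-fold rise (log2 fold change 0.31 ± 0.09, edgeR adjusted p = 0.026), and the value in shHP1γ cells was the same size without being called (0.31, adjusted p = 0.0572). The call in shNS was lost without any 1 replicate or shNS library, with log2 fold changes of 0.27 to 0.34 and adjusted p of 0.054 to 0.252. Without replicate 2 of dex-treated shG9a cells, SP100 was also called lower in shG9a than in shNS cells in dex (-0.30, adjusted p = 0.0394), where the fit of all libraries gave -0.17 (adjusted p = 0.234). SP100 lies at chr2:231280657-231410321 (GRCh37), where its exons overlap a long noncoding RNA on the opposite strand and the pseudogene HMGB1P3. The values above are those of 1 accession. The other tested accession, with 61.79 counts on average, had 0.20 with dex in shNS (edgeR adjusted p = 0.597) and -0.12 in shHP1γ (adjusted p = 0.877).

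OAS2, which makes 2′-5′-linked oligoadenylates that switch on RNase L, was the member called lower with dex. In shNS cells it had 62.8, 65.3 and 76.2 CPM in ethanol and 49.1, 52.5 and 57.6 CPM in dex. The groups did not overlap, and the fall was 1.28-fold (log2 fold change -0.36 ± 0.07, edgeR adjusted p = 0.000718). In shG9a, shGLP and shHP1γ cells the log2 fold changes with dex were -0.07, -0.16 and -0.09, and their adjusted p ran from 0.254 to 0.656. The difference between populations was tested as an interaction and was not called: in shG9a it was 0.29 ± 0.09 (edgeR adjusted p = 0.615) and in shHP1γ 0.27 ± 0.10 (edgeR adjusted p = 1.0). Without replicate 3 the fall in shNS was no longer called (-0.33, adjusted p = 0.087). MX2 and OAS3 also had lower values in every dex library of shNS cells than in any ethanol library, as given below, with log2 fold changes of -0.45 (edgeR adjusted p = 0.151) and -0.29 (adjusted p = 0.114).

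In shNS cells 4 of the 28 tested members were called with dex, 3 higher and 1 lower, where 9.95% of all tested transcripts were called, 4.49% higher and 5.46% lower. The member median was -0.10 on the log2 scale, and that of all transcripts -0.03. In shG9a and shGLP cells 1 member was called, ISG20, against 6.24% and 3.29% of all transcripts. In shHP1γ cells 2 were called, against 3.22%. The counts of all 4 populations include ISG20, which was tested only because its dex groups passed the filter. No member was called in the interaction of dex with shG9a, shGLP or shHP1γ by edgeR or DESeq2, where 0.0885%, 0.118% and 0.0197% of transcripts were called by edgeR. At an unadjusted p under 0.05, edgeR gave 2 members with shG9a, 0 with shGLP and 1 with shHP1γ.

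GBP1, a guanylate-binding GTPase of interferon-treated cells, was higher in all 3 depleted populations in both treatments. In ethanol the shNS libraries had 32.2, 26.4 and 24.4 CPM and the shG9a libraries 42.7, 45.0 and 34.9 CPM. The shGLP libraries had 42.2, 41.2 and 35.7 CPM and the shHP1γ libraries 39.3, 36.8 and 35.0 CPM. All 9 libraries of depleted cells lay above the highest shNS library in ethanol. The log2 fold changes from shNS were 0.56 ± 0.10 in shG9a (edgeR adjusted p = 0.00122), 0.52 ± 0.10 in shGLP (adjusted p = 0.00185) and 0.43 ± 0.10 in shHP1γ cells (adjusted p = 0.0174). RNA of whole cultures was measured, so a rise in each cell and a larger share of cells with the transcript cannot be told apart.

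In dex the shNS libraries had 24.3, 24.3 and 20.3 CPM of GBP1 and the shG9a libraries 38.4, 48.9 and 31.6 CPM. The shGLP libraries had 42.0, 40.1 and 33.2 CPM and the shHP1γ libraries 32.6, 35.4 and 33.5 CPM. Again no library of depleted cells reached down to the shNS range. The highest value, 48.9 CPM, was that of the shG9a replicate 2 that stood apart. The rises were 1.72-fold in shG9a (log2 0.78 ± 0.10, edgeR adjusted p = 1.64e-05), 1.67-fold in shGLP (0.74 ± 0.10, adjusted p = 3.04e-05) and 1.48-fold in shHP1γ cells (0.56 ± 0.10, adjusted p = 0.00122). Without that library the rise in shG9a was 0.63 on the log2 scale (adjusted p = 9.18e-05). Replicate 3 was the lowest of its group except in dex-treated shHP1γ cells. Without replicate 3, GBP1 in ethanol was no longer called in shG9a (0.59, adjusted p = 0.0774), shGLP (0.51, adjusted p = 0.101) or shHP1γ (0.39, adjusted p = 0.295), nor in dex in shHP1γ (0.50, adjusted p = 0.119). The shHP1γ call in ethanol was also lost without replicate 2 (0.41, adjusted p = 0.0684), without replicate 2 of shNS (0.35) and without replicate 3 of shNS (0.42). GBP1 lies at chr1:89517565-89531043 (GRCh37) in a cluster of related GBP genes, whose shared reads the counting could assign to either gene.

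**Figure D3:**
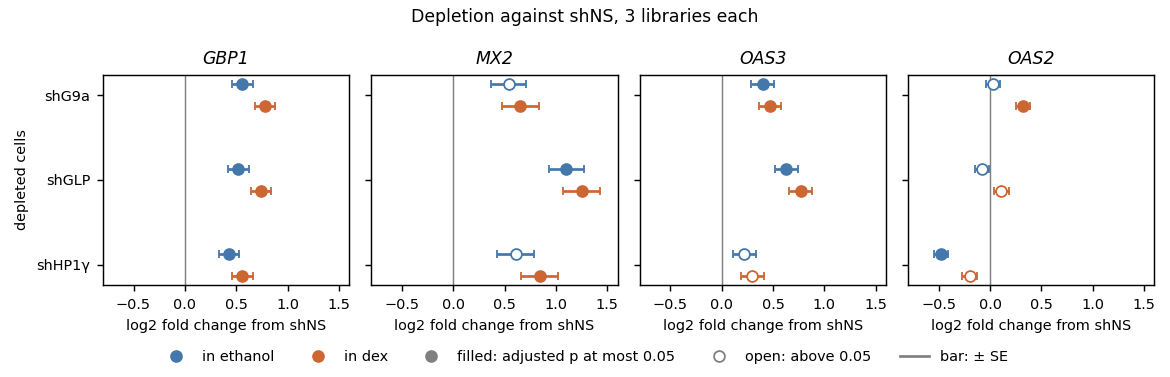
Log2 fold change from shNS (x axis) of GBP1, MX2, OAS3 and OAS2 in cells depleted of G9a, GLP or HP1γ, with ethanol in blue, dex in orange, bars of ± 1 SE and filled points for an adjusted p of at most 0.05. GBP1 is filled in all 6 comparisons, MX2 and OAS3 lie farthest to the right in shGLP, and OAS2 lies left of 0 in shHP1γ.

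MX2, a dynamin-like GTPase that acts against lentiviruses, had its highest mean levels in shGLP cells. In ethanol the shNS libraries had 17.3, 17.2 and 15.1 CPM, the shG9a libraries 24.7, 25.1 and 22.2 CPM, and the shGLP libraries 36.5, 37.3 and 32.7 CPM. These 3 populations did not overlap. MX2 rose 2.15-fold in shGLP (log2 1.10 ± 0.17, edgeR adjusted p = 0.000215), and the value in shG9a was 0.54 ± 0.17 (adjusted p = 0.097). In dex the shNS libraries had 12.5, 13.6 and 10.4 CPM, the shG9a libraries 19.1, 22.9 and 15.1 CPM, and the shGLP libraries 31.4, 30.4 and 25.2 CPM. The rise in shGLP was 2.38-fold (1.25 ± 0.18, adjusted p = 5.04e-05) and that in shG9a 1.57-fold (0.65 ± 0.18, adjusted p = 0.0279). Compared directly, shGLP cells had more MX2 than shG9a cells by 0.56 in ethanol (adjusted p = 0.0442) and 0.61 in dex (adjusted p = 0.0268). The call in ethanol was lost under TMM scaling (0.52) and with counts summed per gene (0.55), and both were lost without the replicate number in the fit. Both were also lost without replicate 2 (0.56 and 0.72) or replicate 3 (0.56 and 0.54), and that in ethanol without any 1 shNS library (0.56). The shG9a call in dex was lost without replicate 2 (0.58) or replicate 3 (0.70), with adjusted p of 0.198 and 0.18, and without any 1 of the shNS dex libraries (0.56 to 0.73). It was also lost without replicate 2 of the dex-treated shG9a cells alone (0.48, adjusted p = 0.189). The shGLP call in ethanol was lost without replicate 3 (1.10, adjusted p = 0.0532). MX2 lies at chr21:42733926-42781320 (GRCh37).

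In shHP1γ cells 1 replicate stood apart. MX2 had 35.5, 23.1 and 18.6 CPM in ethanol and 33.9, 17.0 and 16.0 CPM in dex, replicate 1 being the highest in each. LYZ, a myeloid marker described below, had 10.5, 3.47 and 3.47 CPM in the same ethanol libraries and 8.14, 4.16 and 2.35 CPM in the dex libraries, and its part in the MX2 value was not tested. The rise from shNS in dex was 1.79-fold (log2 0.84 ± 0.18, edgeR adjusted p = 0.00692) and in ethanol 0.61 ± 0.18 (adjusted p = 0.0618). Without replicate 1 these values were 0.46 (adjusted p = 0.0599) and 0.38 (adjusted p = 0.185). The call in dex was also lost without replicate 3 (0.94, adjusted p = 0.129) and without replicate 1 of shNS (0.75, adjusted p = 0.0603).

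OAS3, the member of the oligoadenylate synthetase family with the longest protein, had 44.9, 46.4 and 43.1 CPM in shNS cells in ethanol, 56.3, 58.0 and 63.7 CPM in shG9a and 69.4, 71.6 and 67.4 CPM in shGLP cells. In dex it had 37.0, 35.7 and 37.0 CPM in shNS, 47.1, 48.9 and 56.2 CPM in shG9a and 58.6, 66.2 and 62.6 CPM in shGLP cells. In each treatment the 3 populations were separate and in the same order. OAS3 rose in shGLP by 0.63 ± 0.11 on the log2 scale in ethanol (edgeR adjusted p = 0.000815) and 0.77 ± 0.11 in dex (adjusted p = 6.01e-05). In shG9a it rose by 0.40 ± 0.11 (adjusted p = 0.0423) and 0.47 ± 0.11 (adjusted p = 0.00999). OAS3 was not called between shGLP and shG9a. The value was 0.23 in ethanol (adjusted p = 0.26) and 0.30 in dex (adjusted p = 0.0897), with an interval (95%) of 0.02 to 0.44 and 0.09 to 0.52. The shG9a calls were lost without replicate 2 (0.43 in ethanol, 0.48 in dex) and without replicate 3 (0.33 and 0.40). The call in ethanol was also lost without any 1 of the shNS ethanol libraries (0.33 to 0.47) or without shNS replicate 2 or 3 in dex (0.40 in both), and that in dex without shNS replicate 2 or 3 of the dex libraries (0.43 in both).

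In shHP1γ cells OAS3 had 37.7, 57.0 and 63.0 CPM in ethanol and 36.3, 48.5 and 50.7 CPM in dex, replicate 1 being the lowest, where MX2 had been highest. The log2 fold changes from shNS were 0.22 (edgeR adjusted p = 0.386) and 0.30 (adjusted p = 0.169) with 3 replicates. They were 0.44 (adjusted p = 0.0221) and 0.45 (adjusted p = 0.00975) without replicate 1, so whether OAS3 was called in shHP1γ rested on that replicate. Against shGLP cells, OAS3 was lower in shHP1γ by -0.41 in ethanol (adjusted p = 0.0306) and -0.47 in dex (adjusted p = 0.0117), and without replicate 1 by -0.20 (adjusted p = 0.319) and -0.38 (adjusted p = 0.0314). These 2 calls were also lost without replicate 2 (-0.44 and -0.48) or replicate 3 (-0.57 and -0.55). The genes OAS3 (chr12:113375856-113414265) and OAS2 (chr12:113416200-113449528, GRCh37) are neighbours on the plus strand.

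In ethanol OAS2 did not follow its neighbour, whereas in dex both were called higher in shG9a cells. OAS2 in ethanol had 61.0, 73.6 and 73.9 CPM in shG9a and 61.3, 64.2 and 67.1 CPM in shGLP cells, within or near the shNS range of 62.8 to 76.2 CPM. In shHP1γ it had 41.9, 52.8 and 52.5 CPM, all below the lowest shNS library. OAS2 fell 1.39-fold in shHP1γ (log2 fold change -0.48 ± 0.07, edgeR adjusted p = 0.000212), a call lost without replicate 3 (-0.43, adjusted p = 0.0866). In dex it had 60.0, 63.9 and 74.8 CPM in shG9a against 49.1, 52.5 and 57.6 CPM in shNS cells, a 1.25-fold rise (0.32 ± 0.07, adjusted p = 0.00397), also lost without replicate 3 (0.29, adjusted p = 0.143). In dex the shGLP and shHP1γ values were 0.11 (adjusted p = 0.442) and -0.20 (adjusted p = 0.106). Between depletions, OAS2 was lower in shHP1γ than in shG9a by -0.50 in ethanol (adjusted p = 5.5e-05) and -0.52 in dex (adjusted p = 2.25e-05), and lower than in shGLP by -0.39 (adjusted p = 0.000804) and -0.32 (adjusted p = 0.00631). Against shG9a the calls held without any 1 replicate, any 1 shNS library or replicate 2 of dex-treated shG9a cells, whereas against shGLP they were lost without replicate 1 (-0.31 and -0.30) or replicate 3 (-0.40 and -0.36), and that in dex also without replicate 2 (-0.28). Against shGLP they were also lost without the replicate number in the fit (adjusted p = 0.134 and 0.302 by edgeR), as were those of OAS3 (0.169 and 0.0781).

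OAS2 had 3 tested accessions. NM_016817, at 496.0 counts on average, was called in the same 3 comparisons as NM_002535 (-0.35 with dex in shNS, -0.42 in shHP1γ in ethanol and 0.29 in shG9a in dex). NM_001032731, with 158.8 counts, was called with shG9a and shGLP in dex (0.47 and 0.44, edgeR adjusted p = 0.0173 and 0.0326) and had values of -0.09 with dex in shNS and 0.04 with shHP1γ in ethanol. The accessions of OAS2 thus did not all move together.

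IFIH1, at chr2:163123584-163175194 (GRCh37), encodes MDA5, a sensor of long double-stranded RNA. It had 43.3, 38.0 and 37.5 CPM in shNS cells in dex and 53.3, 45.4 and 46.0 CPM in shGLP cells. The groups did not overlap, and the rise was 1.22-fold (log2 0.29 ± 0.08, edgeR adjusted p = 0.0353). Without replicate 1, 2 or 3 it was 0.28, 0.29 and 0.28 and was not called, and it was not called without shNS replicate 2 or 3 of the dex libraries (0.24 and 0.26) or replicate 3 of the ethanol libraries (0.28), by DESeq2 (0.26, adjusted p = 0.0668) or under TMM scaling (0.26, adjusted p = 0.0616). In ethanol the value in shGLP was 0.22 (adjusted p = 0.185).

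In ethanol 2 of the 28 tested members were called with shG9a, 3 with shGLP and 2 with shHP1γ, against 3.73%, 3.61% and 2.91% of all tested transcripts. In dex 4 were called with shG9a, all higher, 4 with shGLP, all higher, and 2 with shHP1γ, both higher, against 8.8%, 5.77% and 4.09% of transcripts in either direction and 4.38%, 3.31% and 2.55% higher. The member medians from shNS were -0.04, 0.08 and 0.01 in ethanol and 0.06, 0.14 and 0.04 in dex on the log2 scale, where those of all transcripts were -0.02, 0.01, 0.02, 0.00, 0.03 and 0.03.

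A myeloid marker, LYZ, was higher in shGLP cells. LYZ, lysozyme, a myeloid gene, had 5.64, 2.76 and 3.65 CPM in shNS cells in ethanol and 23.0, 31.2 and 23.2 CPM in shGLP (log2 fold change 2.71 ± 0.30, edgeR adjusted p = 3.21e-06). In dex it had 3.13, 2.92 and 1.61 CPM in shNS and 23.3, 27.7 and 19.4 CPM in shGLP (3.22 ± 0.32, adjusted p = 5.94e-07). The 5 myeloid markers summed to 26.4 to 34.0 CPM in the shGLP ethanol libraries and 4.14 to 7.81 CPM in shNS. In dex they summed to 20.4 to 30.0 CPM in shGLP and 2.74 to 3.44 CPM in shNS. LYZ made up most of these sums, so they add little to its own values. The other members of that list were MPO (3.22 against 1.38 CPM in ethanol, adjusted p = 0.0667), CD14 with a mean of 1.042 counts, and CSF1R and ITGAM, both listed at 0 with 2 or more accessions. Of 3 markers of plasmacytoid dendritic cells, the makers of type I interferon, CLEC4C was listed at 0, IL3RA was not analysed here and LILRA4 had a mean of 13.25 counts. That list summed to 0.945 to 2.05 CPM in shGLP and 0.607 to 1.75 CPM in shNS in ethanol. In dex it summed to 1.9 to 2.26 CPM in shGLP and 0.643 to 1.13 CPM in shNS. The part of these markers in the shGLP values of MX2, OAS3 and IFIH1, and in those of IRF8, TLR7 and TLR9, was not tested.

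**Figure D4:**
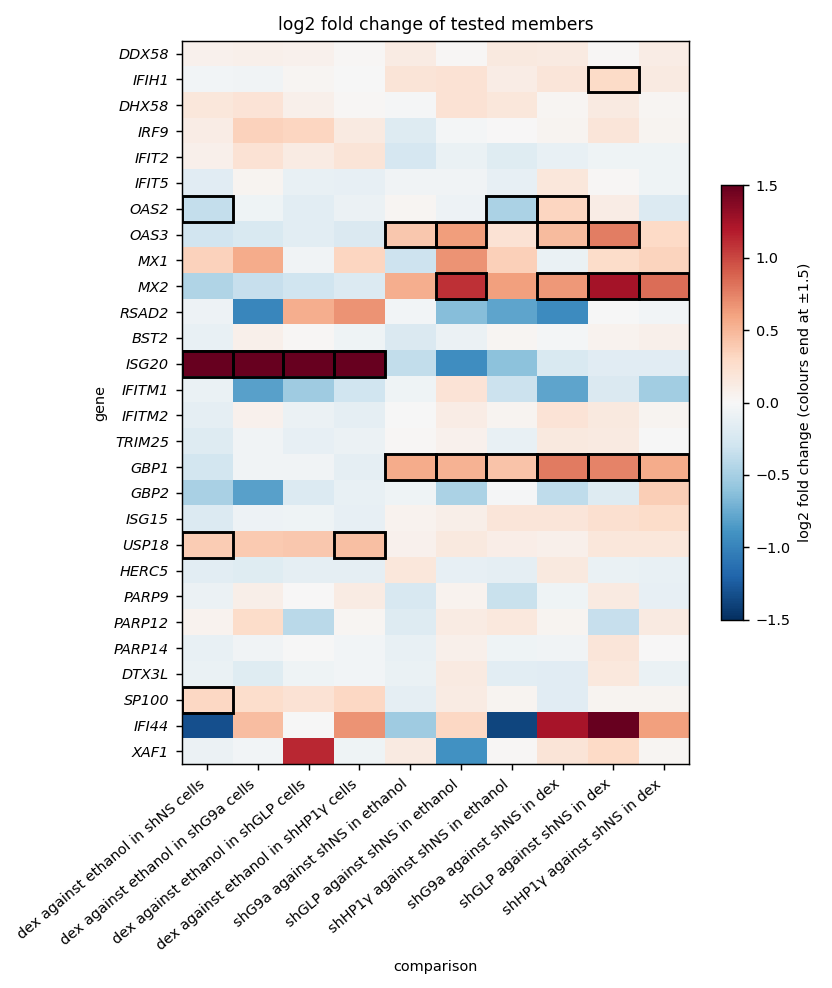
Log2 fold change (colour, ending at ±1.5) of the 28 tested ISGs (y axis, ordered by role) in the 10 comparisons of 2 groups (x axis), with boxes around values called at an adjusted p of at most 0.05. Boxes fall in the rows of 8 genes, and the deep unboxed colours of IFI44, XAF1 and RSAD2 belong to genes with means under 10 counts.

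The other 20 tested members were called in none of these comparisons. Of them, 14 had a mean of at least 50 counts, and their log2 fold changes lay between -0.82 (IFITM1, the least abundant of them with 67.0 counts) and 0.34 (IRF9). Both ends came with dex in shG9a cells and leaned on replicate 2 in dex, where IFITM1 had 0.934 CPM against 5.96 and 4.98 in the other replicates. Without that library the 2 values were -0.30 and 0.14. The 6 with lower means (MX1, RSAD2, GBP2, PARP12, IFI44 and XAF1) ranged from -1.38 to 1.62 without passing the test.

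Among the RNA sensors, DDX58, which encodes RIG-I, had 43.6 to 63.2 CPM over the 24 libraries and log2 fold changes of 0.02 to 0.15. DHX58, their regulator LGP2, had 18.3 to 28.7 CPM and changes of -0.02 to 0.22. Of the transcription factors, IRF9 was the 1 tested member, with 19.6 to 30.8 CPM. Its values in dex-treated shG9a cells were 25.1, 30.8 and 22.4 CPM against 20.5, 19.6 and 22.1 CPM in ethanol, its smallest adjusted p over the 10 comparisons being 0.0917 there.

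In the IFIT family, whose proteins bind viral RNA ends, IFIT5 had 60.3 to 84.8 CPM and IFIT2 22.9 to 39.6 CPM, with log2 fold changes of -0.17 to 0.17 and -0.25 to 0.22. The most abundant antiviral effector by count was IFITM2, a membrane protein that blocks viral fusion, with 557 to 880 CPM and changes of -0.14 to 0.21. IFITM1 and IFITM2 are close paralogs, and reads shared between them or with IFITM3, which was listed at 0, could make both values uncertain. This was not tested. BST2, tetherin, which holds budding virus at the cell surface, had 92.3 to 123 CPM, and TRIM25, the ubiquitin ligase that activates RIG-I, had 309 to 512 CPM. Neither was called against shNS or with dex.

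ISG15 itself had 28.6 to 49.2 CPM with log2 fold changes of -0.21 to 0.28, and HERC5, the ligase that attaches it, had 184 to 316 CPM with changes of -0.18 to 0.17. These changes are those with dex or against shNS, where the smallest adjusted p was 0.172 for ISG15 and 0.133 for HERC5. Of the 3 tested genes of the ISG15 pathway, USP18 was therefore the one called with dex or against shNS. Its calls were lost when any replicate was left out, as given above. HERC5 was called between depletions, as given below.

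PARP9 and its partner DTX3L, a ubiquitin ligase, form a complex that takes part in interferon responses. Against shNS neither was called, with smallest adjusted p of 0.0843 and 0.072, and PARP14 lay between -0.11 and 0.18. Between depletions they separated: DTX3L was higher in shGLP than in shG9a by 0.23 in ethanol (edgeR adjusted p = 0.0207) and 0.34 in dex (adjusted p = 0.000615). In dex DTX3L had 351, 348 and 353 CPM in shGLP cells, 290, 262 and 282 CPM in shG9a and 312, 312 and 315 CPM in shNS, with shNS between the 2 depletions. DTX3L was lower in shHP1γ than in shGLP by -0.29 in ethanol (adjusted p = 0.00393) and -0.26 in dex (adjusted p = 0.00895). PARP14 was higher in shGLP than in shG9a in dex by 0.23 (adjusted p = 0.0355), and PARP9 was lower in shHP1γ than in shGLP in ethanol by -0.38 (adjusted p = 0.0314). Without replicate 3, DTX3L was called in none of these 4 comparisons (0.20, 0.34, -0.30 and -0.30). Calls of DTX3L were also lost without replicate 2 between shGLP and shG9a in ethanol (0.24) and without replicate 1 or 2 between shHP1γ and shGLP in dex (-0.19 and -0.28). PARP14 lost its call without replicate 2 (0.21), replicate 3 (0.19) or any of 3 shNS libraries (0.22 to 0.23), and PARP9 without replicate 1 (-0.32) or replicate 3 (-0.27). Without the replicate number in the fit, DTX3L between shGLP and shG9a in ethanol, PARP14 and PARP9 were not called, and without the filter on low counts these same 3 were not called either. PARP14 was not called without replicate 2 of dex-treated shG9a cells (0.19). PARP9 and DTX3L overlap on opposite strands, and the strand setting of the counting is not given in the sources used here.

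HERC5 went the other way, with 316, 280 and 271 CPM in shG9a cells in ethanol, 269, 215 and 225 CPM in shGLP and 240, 231 and 229 CPM in shHP1γ. It was lower than in shG9a by -0.29 in shGLP (edgeR adjusted p = 0.00933) and -0.31 in shHP1γ (adjusted p = 0.00795) in ethanol, and by -0.25 (adjusted p = 0.0224) and -0.26 (adjusted p = 0.0219) in dex. In ethanol BST2 was higher in shHP1γ than in shG9a by 0.26 (adjusted p = 0.0338), and in dex IFIT5 was lower by -0.23 (adjusted p = 0.0374). HERC5 lost all 4 calls without replicate 2 or replicate 3 (-0.34 to -0.19), and that of shHP1γ in dex also without replicate 1 (-0.18). The call of BST2 was lost without replicate 1 (0.24) or 3 (0.23) and that of IFIT5 without replicate 2 (-0.18) or 3 (-0.23) or replicate 2 of dex-treated shG9a cells alone (-0.17). All 4 HERC5 calls were lost without the replicate number in the fit (adjusted p = 0.159 to 0.242 by edgeR) and with 1 RUV factor in its place (0.0623 to 0.108). BST2 was not called without the replicate number, with the RUV factor, under TMM scaling, without the filter or by DESeq2 (0.18 to 0.26), and IFIT5 not without the replicate number. Over these 6 added comparisons between depletions, 3 or 4 of the 28 members were called in each. Between shGLP and shG9a 6.23% of all transcripts were called in ethanol and 8.62% in dex, between shHP1γ and shG9a 6.07% and 6.43%, and between shHP1γ and shGLP 4.2% and 4.02%. They share each depleted group across comparisons and were chosen after values against shNS had been seen.

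Other genes of the interferon pathway were taken as a list of 38, of which 22 were tested, 6 were under the filter, 8 were listed at 0 and 2 were not analysed here. The interferon genes of the list were at or near 0: IFNB1 and IFNA1 were listed at 0, and IFNG and IFNL1 had 2 and 6 counts over all 24 libraries. With dex 6 of the 22 were called in shNS (2 higher, 4 lower), 3 in shG9a (1 higher, 2 lower), and 1 each in shGLP and shHP1γ (higher), which is 27.3%, 13.6%, 4.55% and 4.55% of the list where 9.95%, 6.24%, 3.29% and 3.22% of all transcripts were called. From shNS in ethanol 3 were called in shG9a (all lower), 2 in shGLP (both higher) and 0 in shHP1γ, where 5 had an unadjusted p under 0.05 by edgeR and DESeq2 called 0 of the 15 it gave an adjusted p. From shNS in dex 6 were called in shG9a (2 higher, 4 lower), 6 in shGLP (5 higher, 1 lower) and 3 in shHP1γ (2 higher, 1 lower). From shNS these were 13.6%, 9.09% and 0% of the list in ethanol and 27.3%, 27.3% and 13.6% in dex, beside the 3.73%, 3.61%, 2.91%, 8.8%, 5.77% and 4.09% of all transcripts given above. Over these comparisons and those between depletions, 28 of 54 called values of the list were called without the replicate number in the fit.

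SOCS1, the inhibitor of JAK kinases that ends interferon signalling, rose with dex in every population. In shNS cells it had 5.72, 4.50 and 3.82 CPM in ethanol and 32.9, 34.0 and 38.0 CPM in dex, a 7.51-fold rise (log2 2.91 ± 0.17, edgeR adjusted p = 1.89e-11). In dex it had 14.0, 17.0 and 13 CPM in shG9a, 20.8, 17.3 and 19.0 CPM in shGLP and 20.9, 21.3 and 21.1 CPM in shHP1γ cells. All 9 libraries of depleted cells lay below the lowest shNS library. SOCS1 in dex was lower than in shNS by -1.26 ± 0.15 in shG9a (adjusted p = 6.21e-06), -0.89 ± 0.15 in shGLP (adjusted p = 0.000312) and -0.73 ± 0.14 in shHP1γ (adjusted p = 0.00306), the last not called without replicate 3 (-0.65, adjusted p = 0.112). The rise with dex within shG9a, shGLP and shHP1γ cells was 2.13, 2.06 and 1.74. As interactions these differences from shNS came to -0.78, -0.85 and -1.17 with adjusted p of 0.615, 0.602 and 0.0969, none of them called by edgeR, while DESeq2 called the last (-1.20, adjusted p = 0.005).

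**Figure D5:**
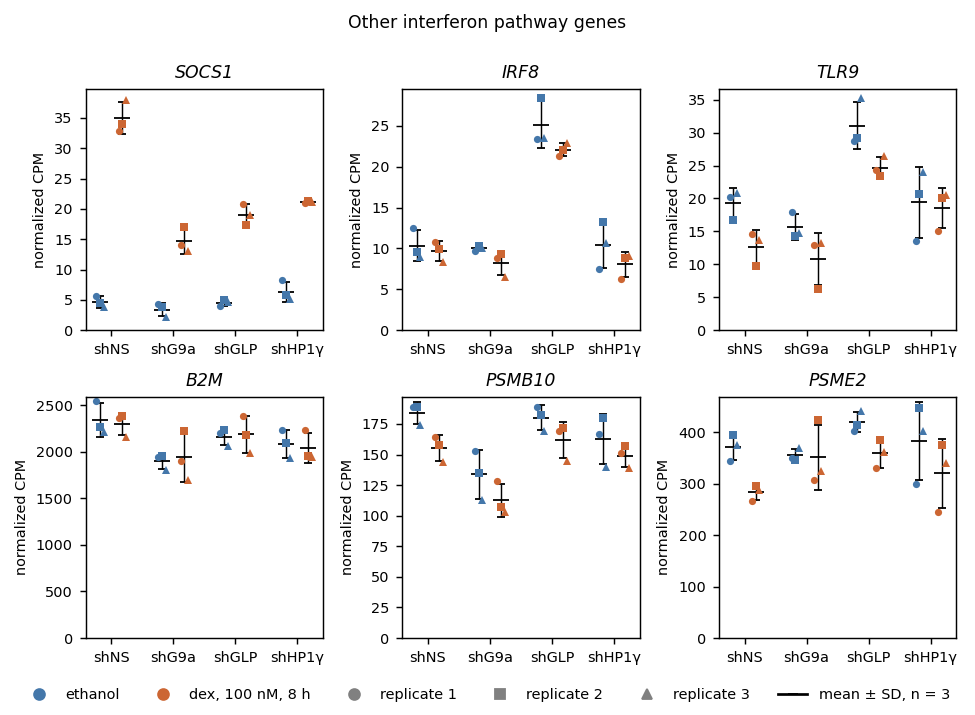
Normalized CPM (y axis) of 6 other interferon pathway genes in every library, by shRNA (x axis), with ethanol in blue, dex in orange, the symbol marking the replicate and bars of mean ± SD of 3 libraries. SOCS1 in dex is highest in shNS, IRF8 is raised in shGLP, and the mean of PSMB10 is lowest in shG9a in each treatment.

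IRF8, an interferon regulatory factor of B and myeloid cells, had 12.5, 9.56 and 9 CPM in shNS cells in ethanol and 23.4, 28.4 and 23.5 CPM in shGLP, a 2.41-fold rise (log2 1.27 ± 0.16, edgeR adjusted p = 1.77e-05). In dex it had 10.8, 9.88 and 8.31 CPM in shNS and 21.3, 22 and 22.9 CPM in shGLP (1.20 ± 0.16, adjusted p = 3.04e-05). The shG9a and shHP1γ libraries stayed between 6.28 and 13.2 CPM. Of the endosomal nucleic acid receptors, TLR9 was higher in shGLP by 0.69 in ethanol (adjusted p = 0.0357) and 0.97 in dex (adjusted p = 0.00216), and TLR7, near 1 CPM, by 1.28 in dex (adjusted p = 0.0422). Both TLR9 calls were lost without replicate 3 (0.65 and 0.98), the one in ethanol also without replicate 2 (0.62) or any 1 shNS ethanol library (0.65 to 0.74). The TLR9 call in ethanol and the TLR7 call were lost without the replicate number in the fit (0.68 and 1.29). The TLR7 call was also lost without replicate 2 (1.23), replicate 3 (0.83), shNS replicate 2 or 3 in dex (1.21 and 0.92) or shNS replicate 1 or 3 in ethanol (1.28). LYZ was also higher in these shGLP libraries, as given above. With dex in shNS cells TLR9 was called lower (-0.61, edgeR adjusted p = 0.0496), from a mean of 19.3 to 12.7 CPM. The shGLP value in dex is therefore taken from a lower shNS level. That call was lost without replicate 2 (-0.54) or replicate 3 (-0.61).

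Genes of antigen processing moved in both directions. PSMB10, an immunoproteasome subunit, was lower in shG9a by -0.47 in each treatment (edgeR adjusted p = 0.00013 in ethanol and 6.35e-05 in dex), and B2M, the light chain of MHC class I, by -0.30 and -0.25 (adjusted p = 0.00629 and 0.0147). Without the replicate number in the fit B2M was not called in shG9a (adjusted p = 0.171 and 0.18 by edgeR), nor was PSME2 in any of its comparisons (0.118 to 0.277). The B2M calls were also lost without replicate 1 (-0.24 and -0.20), replicate 3 (-0.29 and -0.20) or some shNS libraries (-0.27 to -0.24). The PSMB10 call in ethanol was lost without replicate 3 (-0.39, adjusted p = 0.093). With dex PSMB10 was also called lower in shNS (-0.25, edgeR adjusted p = 0.0148) and in shG9a cells (-0.24, adjusted p = 0.0298). Both of these calls were lost without replicate 2, without replicate 3 and without the replicate number in the fit. PSME2, a proteasome activator, was lower with dex in shNS (-0.39, adjusted p = 0.00714) and higher than in shNS in dex in shG9a (0.31, adjusted p = 0.0435) and shGLP (0.34, adjusted p = 0.0323). It had 266, 296 and 287 CPM in shNS cells in dex, 307, 424 and 324 CPM in shG9a and 330, 385 and 361 CPM in shGLP. The 2 calls in depleted cells were lost without replicate 2 (0.20 and 0.32) or replicate 3 (0.37 and 0.34) and without any 1 of the shNS dex libraries (0.27 to 0.37), and that in shG9a also without any 1 shNS ethanol library (0.31) or without shG9a replicate 2 in dex (0.21). With 1 RUV factor both were lost too (0.33 and 0.34). The fall in shNS was lost without replicate 3 (-0.39) or shNS replicate 2 in dex (-0.36).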

How the data were processed

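Total RNA of 24 Nalm6 libraries was sequenced. Reads were trimmed, aligned with HISAT2 to hg19 (GRCh37) and counted over RefSeq transcripts with GenomicAlignments by the authors, who deposited counts per accession under a heading of CPM. These were whole numbers with unequal totals and were used as counts. The counting mode, strand setting and RefSeq release are not given in the sources used here. A second deposited table holds the authors' fold changes and adjusted p-values and was used for gene symbols alone.

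Of 64519 accessions, 40144 were at 0 in every library. Transcripts with more than 1 CPM in at least 2 libraries were fitted with edgeR 4.0.16 (R 4.3.3) by quasi-likelihood with upper-quartile factors, 8 groups and the replicate number, and p-values were Benjamini-Hochberg adjusted. Log2 fold changes are from that fit, and levels are normalized CPM. The p-values weigh a difference against a spread between replicates estimated over all 24 libraries, with 3 replicates in each group. The script was tested on simulated data. Replicates were made on different days per the labels. Deviations of same-numbered libraries correlated from -0.003 to 0.639 (median 0.2) over 84 correlations, 3 for each pair of groups, 71 of them over 0.1.

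Named genes were the called members, the member with the highest CPM in each role and called pathway genes. Other members were named, for a range or a difference between depletions, after their values were seen. Members and lists were chosen with earlier results of these data known. Alternatives were TMM scaling, no filter, no replicate number, 1 RUV factor, counts summed per gene, DESeq2 1.42.0 and fits without each replicate. Fits without each shNS library or without shG9a replicate 2 in dex and the 6 comparisons between depletions were added after the data were seen. A few genes of the lists are not reported here.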

Additional observations from a re-analysis of the deposited data

How the results depend on the processing

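No called value of a member changed sign under any alternative. A value already called could hardly do so, because each alternative reused all or most of the same libraries. Of the 25 called values, 24 were called under TMM scaling, 19 without the filter on low counts, 25 with 1 RUV factor in place of the replicate number, 25 with counts summed per gene, and 23 of the 24 to which DESeq2 gave an adjusted p. Without the replicate block, 12 were called, and the number of members called was 1 with dex in shNS and 1 in shHP1γ cells, 1 with shG9a in ethanol, 0 with shHP1γ in ethanol, and 1 with shG9a and 1 with shHP1γ in dex. With dex in shG9a cells 2 members were called under TMM scaling, 2 without the filter, 3 with the RUV factor and 2 by DESeq2, and in shHP1γ cells 1 was called without the filter. When a replicate, a shNS library or shG9a replicate 2 in dex was left out, the members called with dex were 1 to 5 in shNS, 1 to 2 in shG9a, 1 to 2 in shGLP and 1 to 3 in shHP1γ. From shNS they were 0 to 3 with shG9a, 1 to 3 with shGLP and 0 to 3 with shHP1γ in ethanol, and 1 to 6, 3 to 4 and 0 to 2 in dex, and they were 0 in the 3 interactions throughout. Fits that leave out a replicate hold 16 of the 24 libraries. The cause of the other shifts was not tested. Members with means under 50 counts, and those with several accessions, are limited by depth and by the counting.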
